A study of Homo sapiens with 18 samples.

Results

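The nuclear minus cytoplasmic knockdown effect is the log2 change on La depletion in nuclear RNA minus the log2 change in cytoplasmic RNA, and it was measured here for small RNAs of HEK293T cells, an established human embryonic kidney line. All cells had been transfected for 48 h with RNAimax, the control cells with si-scramble and the siSSB cells with an siRNA against SSB, the gene of La. Of the 18 small RNA libraries, the 12 of the nuclear (nuc) and cytoplasmic (cyto) fractions enter the difference, as 3 control nuc, 3 siSSB nuc, 3 control cyto and 3 siSSB cyto libraries. The table of raw counts held 175935 features, of which 28304 were at most 500 nt long. Of the 37493 features with enough counts for the test, 2626 were at most 500 nt long, and 2211 of these belonged to 1 of 18 RNA types. Nuclear and cytoplasmic RNA were parted with the mirVana PARIS kit. A positive value means that an RNA fell less, or rose more, in the nucleus than in the cytoplasm. No feature carried the name SSB, so siSSB names libraries by their label, and a lncRNA feature that covers SSB exons (HSALNG0020274) had cytoplasmic counts of 25 to 32 for control and 983 to 3304 for siSSB, and nuclear counts of 1 to 5 and 5 to 14. These counts run against the direction of a knockdown, and what the reads are was not tested.

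La is a chaperone that binds the oligouridine 3′ end left when RNA polymerase III (Pol III) terminates. It shields newly made Pol III transcripts from 3′ exonucleases, helps precursor tRNAs to fold and be trimmed at the 3′ end, and lies mostly in the nucleus. Its ligands include precursor tRNAs, 5S rRNA, Y RNAs, vault RNAs, U6 snRNA and snaR RNAs, small Pol III transcripts that bind the NF90 protein and are made in many tumor cells. A knockdown effect that differs between the fractions can therefore be asked of each of these families.

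The genes on which the results turn are printed below from the hg38 genome, 5′ to 3′ on the transcribed strand, from the RefSeq (GRCh38.p14) gene start to the first run of at least 4 T at or after the gene end. Capitals mark this T run, the DNA form of a 3′ end that La can bind. The 4 tyrosine tRNA genes are shown because one of them, tRNA-Tyr-GTA-3-1, carried the only difference that passed the test among small features, whereas the 3 relatives did not. They lie at chr6:26577104-26577202 (3-1), chr6:26575570-26575669 (8-1), chr6:26568858-26568968 (1-2) and chr2:27050782-27050887 (2-1), all on the plus strand. Over the gene itself, tRNA-Tyr-GTA-3-1 shared 84 of 90 aligned bases with 8-1, 80 of 94 with 1-2 and 79 of 92 with 2-1.
tRNA-Tyr-GTA-3-1: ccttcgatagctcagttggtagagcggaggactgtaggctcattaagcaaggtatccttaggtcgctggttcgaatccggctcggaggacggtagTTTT
tRNA-Tyr-GTA-8-1: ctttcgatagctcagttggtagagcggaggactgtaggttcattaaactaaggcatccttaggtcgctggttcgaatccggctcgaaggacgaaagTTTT
tRNA-Tyr-GTA-1-2: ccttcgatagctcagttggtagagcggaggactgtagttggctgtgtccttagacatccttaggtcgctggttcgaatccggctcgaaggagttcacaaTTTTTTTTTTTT
tRNA-Tyr-GTA-2-1: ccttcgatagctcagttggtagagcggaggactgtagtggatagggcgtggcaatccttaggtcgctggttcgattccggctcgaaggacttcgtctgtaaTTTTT

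The next set shows the other Pol III genes that bear the main contrasts. tRNA-Ser-TGA-1-1 (chr10:67764503-67764606, plus strand) had the smallest unadjusted p among tRNAs after tRNA-Tyr-GTA-3-1. SNAR-A14 (chr19:47923779-47923899, plus strand) and SNAR-B1 (chr19:50139118-50139237, minus strand) were the most abundant features of the snaR families, and RefSeq calls the genes at these positions SNAR-A3 and SNAR-B2. VTRNA1-2 (chr5:140718926-140719013, plus strand) fell in both fractions. In the snaR and vault RNA genes the T run ended the annotated gene, whereas in the tRNA genes it lay beyond it, in the trailer that is cut off.
tRNA-Ser-TGA-1-1: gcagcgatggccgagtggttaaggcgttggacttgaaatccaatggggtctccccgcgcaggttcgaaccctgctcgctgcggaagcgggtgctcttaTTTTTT
SNAR-A14: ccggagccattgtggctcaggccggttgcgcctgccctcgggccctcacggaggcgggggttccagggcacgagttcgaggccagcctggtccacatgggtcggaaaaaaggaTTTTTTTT
SNAR-B1: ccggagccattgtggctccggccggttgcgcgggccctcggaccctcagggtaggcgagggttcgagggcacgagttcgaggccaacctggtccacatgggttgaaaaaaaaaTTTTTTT
VTRNA1-2: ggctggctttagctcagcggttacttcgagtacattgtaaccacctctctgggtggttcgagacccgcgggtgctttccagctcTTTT

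The fractions differed strongly in composition. snoRNAs, which work in the nucleolus, made up 78.7% to 85.5% of the counts over all RNA types in the 6 nuc libraries and 8.12% to 12.1% in the 6 cyto libraries. tRNAs made up 0.807% to 0.998% in nuc, 27.3% to 30.1% in control cyto and 20.1% to 24.6% in siSSB cyto libraries. The shares of U6 snRNA and of RMRP, the RNA of RNase MRP, overlapped between nuc and cyto. Column sums were 21565995 to 158244813 counts, but features overlap and share reads, and the features with an RNA type summed to 2392281 to 7693994. Levels are given as CPM, counts divided by library size and by a TMM normalization factor. The factors were 0.208 to 0.230 in control nuc and 0.267 to 0.401 in siSSB nuc libraries. They were 3.08 to 4.22 in control cyto and 3.89 to 4.61 in siSSB cyto libraries. Among nuclear libraries, siSSB nuc replicate 2 had a factor of 0.401 against 0.267 and 0.271 in its group, and RMRP stood at 205 CPM there and at 216 CPM in control nuc replicate 3, against 81.7 to 90.9 CPM in the other 4 nuc libraries. Fewer molecules in a fraction and a smaller share of that fraction cannot be told apart in these data.

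Across all features the difference was rarely beyond the spread between replicates. By edgeR's quasi-likelihood test with Benjamini-Hochberg adjustment over 37493 features, 5 passed an adjusted p of 0.05 (0.0133%), 3 higher (0.008%) and 2 lower (0.00533%), and 1837 had an unadjusted p under 0.05. Only 1 of the 5 was at most 500 nt long, tRNA-Tyr-GTA-3-1. Upward differences with an unadjusted p under 0.05 were seen in 2.7% of all features and downward ones in 2.2%, and the median difference was 0.01. Effects that did not overlap, with all 9 siSSB minus control differences of nuc above all 9 of cyto, were seen in 1.93% of features, and the opposite in 1.14%. Among the 2626 tested features of at most 500 nt, the median was −0.28 and 976 were above 0. Of these 2626, 2.82% were upward and 6.21% downward with an unadjusted p under 0.05. Non-overlapping effects were seen upward in 1.87% of them and downward in 2.70%. Both sets of shares are the background for the counts by RNA type below.

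tRNA-Tyr-GTA-3-1 fell in the cytoplasm and stood higher in the nucleus after knockdown. The feature spans chr6:26577079-26577217 with flanks of 25 nt around the gene and lies in no GENCODE gene. In control nuc it was at 1.95, 1.55 and 2.46 CPM, and in siSSB nuc at 5.03, 5.12 and 5.92 CPM. In control cyto it was at 6.4, 3.48 and 7.67 CPM, and in siSSB cyto at 1.29, 1.52 and 1.69 CPM. Every siSSB nuc library was thus above every control nuc library, and every siSSB cyto library below every control cyto library. These levels rest on 44 to 203 counts in the nuc libraries and 159 to 1052 counts in the cyto libraries. The log2 change was 1.43 ± 0.34 (SE) in nuc, which did not pass on its own (adjusted p = 0.112), and −1.97 ± 0.33 in cyto, which did (adjusted p = 0.000584). Their difference was 3.40 ± 0.48 (adjusted p = 0.000273, edgeR). It stayed past the threshold without any 1 of the 12 libraries, at 3.26 to 3.68. In total RNA, whose 6 libraries the difference does not use, the change was −1.20 ± 0.37 (adjusted p = 0.129), in a test that called 0.972% of 13883 features lower and 0.367% higher.

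**Figure D1:**
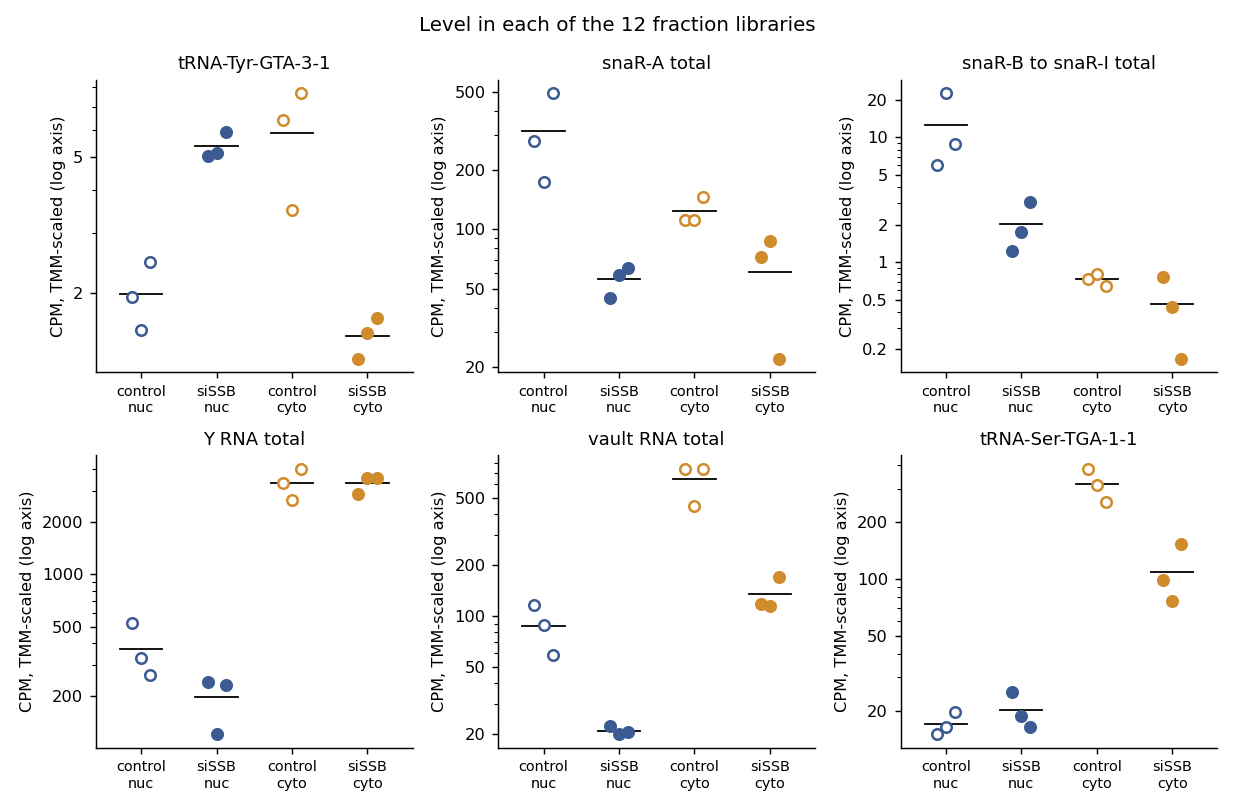
Level of 2 tRNA features and 4 RNA type totals in each of the 12 fraction libraries, as TMM-scaled CPM on a log axis; open points are control, filled points siSSB libraries, and lines group means (n = 3). tRNA-Tyr-GTA-3-1 was above its controls in siSSB nuc and below them in siSSB cyto, the snaR totals dropped furthest in nuc, and the vault RNA total dropped in both fractions.

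Tyrosine tRNAs as a family shared the cytoplasmic drop, with a median change of −1.39 in cyto and −0.34 in nuc over 14 features. Tyr-GTA genes carry introns that are spliced out of the precursor, and 13 of 14 tested tyrosine features had a difference above 0, with a median of 0.90. The largest difference of the 14, 3.62, was of a feature with fewer than 50 counts a library on average, and it did not pass. Among tyrosine features other than tRNA-Tyr-GTA-3-1 with at least 50 counts, the highest nuclear change was 0.08, of tRNA-Tyr-GTA-2-1. The nuclear rise was thus not shared by the relatives with enough counts to judge it. tRNA-Tyr-GTA-8-1, the closest of the 3 genes aligned with tRNA-Tyr-GTA-3-1, was at 0.67, 1.06 and 0.962 CPM in control nuc. In siSSB nuc tRNA-Tyr-GTA-8-1 was at 0.572, 0.379 and 0.44 CPM, so it was lower after knockdown there. It was at 8.42, 6.31 and 6.27 CPM in control cyto and 1.13, 0.929 and 2.12 CPM in siSSB cyto. Its difference of 1.38 ± 0.52 came from a change of −0.95 ± 0.40 in nuc and −2.33 ± 0.35 in cyto, and did not pass (adjusted p = 0.958). For tRNA-Tyr-GTA-1-2 the difference was 0.88 ± 0.47 and for tRNA-Tyr-GTA-2-1, in an intron of AGBL5, 0.92 ± 0.47. Both changed by less than 0.1 in nuc, at 0.01 ± 0.33 and 0.08 ± 0.34. These 3 genes were chosen for description after their values were seen. Reads of near-identical tRNA copies may be split among genes, so values of single copies are uncertain.

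tRNAs leaned upward. A difference above 0 was seen in 50.3% of all features and in 976 of the 2626 of at most 500 nt. Of 499 tRNA features 461 were tested, 296 of them above 0, and their median was 0.18. An unadjusted p under 0.05 was reached by 51 features upward (11.1%) and 0 downward, and 30 had non-overlapping effects upward and 0 downward. One passed the adjusted threshold. The tRNA total itself showed no detectable difference, at 0.10 ± 0.39, since it changed by −0.50 ± 0.27 in nuc and −0.60 ± 0.28 in cyto. In cyto 49 tRNA features were lower past the threshold, against 2 in nuc, beside 0.405% and 0.0747% of all features (0.0187% and 0.00267% were called higher in cyto and nuc). The median change over the tRNA features was −0.62 in cyto and −0.50 in nuc. The tRNA total held 559959 to 1359549 counts in the cyto libraries and 41216 to 76824 in the nuc libraries. How far the numbers of calls follow these counts was not tested. All 6 alternative ways of scaling the libraries kept the tRNA median above the median of all features, by 0.18 to 0.21. Single libraries moved it more: without 1 library it lay 0.054 (control nuc replicate 3) to 0.41 (siSSB nuc replicate 2) above. It lay 0.084 above without siSSB cyto replicate 2, 0.091 without siSSB nuc replicate 1, 0.28 without control cyto replicate 2, 0.31 without control nuc replicate 1 and 0.34 without siSSB cyto replicate 3. Without 1 library, 39 to 91 tRNA features had an unadjusted p under 0.05 upward and 0 to 7 downward, with 91 upward without siSSB cyto replicate 3.

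The naming rule took features with non-overlapping effects, 50 or more counts a library on average and an unadjusted p below 0.05. It found 19 small features upward, 16 of them tRNAs, and 19 downward, 0 of them tRNAs. tRNA-Ser-TGA-1-1 decodes serine codons and was at 15, 16.4 and 19.7 CPM in control nuc and 25.2, 18.7 and 16.4 CPM in siSSB nuc. It was at 383, 315 and 255 CPM in control cyto and 98.9, 76.4 and 152 CPM in siSSB cyto. The nuc groups overlapped and the cyto groups did not. Its difference was 1.78 ± 0.42 with an unadjusted p of 0.000131 and an adjusted p of 0.504. The difference of tRNA-Ser-TGA-1-1 passed without control cyto replicate 3 (2.01, adjusted p = 0.0176) or siSSB cyto replicate 3 (2.11, adjusted p = 0.0211), and with library size alone (2.10, adjusted p = 0.0104) or class sum scaling (2.04, adjusted p = 0.0167).

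The remaining tRNAs named by the rule also had lower levels in siSSB cyto. tRNA-Pro-TGG-1-1 was at 0.813 to 1.16 CPM in control nuc and 0.757 to 1.35 in siSSB nuc, but went from 15.4 to 26.6 CPM in control cyto to 6.1 to 8.5 CPM in siSSB cyto. Its difference was 1.71 ± 0.48. tRNA-Thr-TGT-4-1, with a difference of 1.71 ± 0.48, went from 1.59 to 1.74 CPM to 2.47 to 2.65 CPM in nuc and from 1.15 to 2.46 CPM to 0.594 to 1.01 CPM in cyto, so neither pair of groups overlapped. tRNA-Ala-AGC-9-2, with 1.61 ± 0.61, fell by 2.45 on the log2 scale in cyto (adjusted p = 6.18e-05), while its nuc libraries held only 4 to 22 counts. The adjusted p of each of these differences was 0.958. The most abundant tRNA feature, tRNA-Leu-CAA-4-1, had a difference of 0.37 ± 0.48, and tRNA-Lys-TTT-1-2 of 0.25 ± 0.49.

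**Figure D2:**
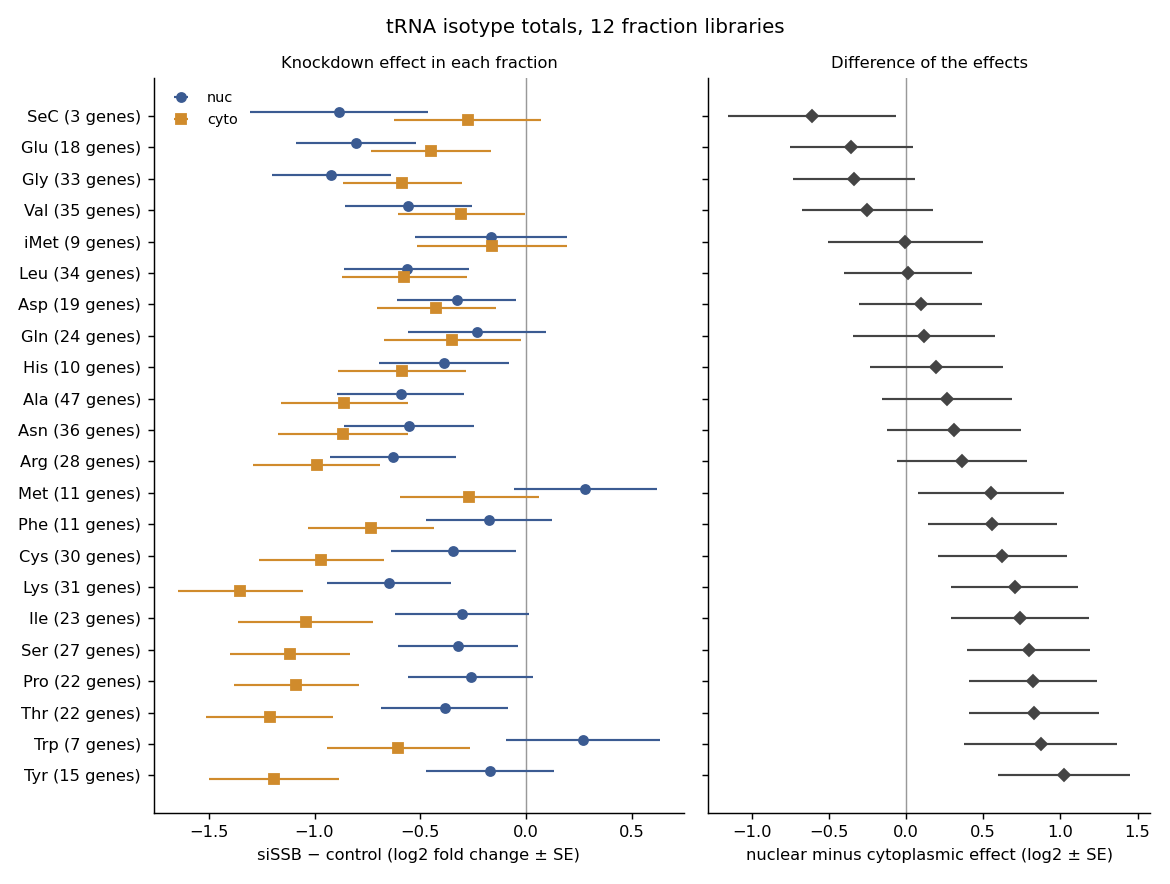
Summed counts of 22 tRNA isotypes, with the number of genes summed: the left panel shows the knockdown effect in nuc and cyto and the right panel their difference, all log2 ± SE from 1 fit of 12 libraries. Tyr (1.02 ± 0.43) lies at one end and SeC (−0.61 ± 0.54) at the other.

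Summed by isotype, 17 of 23 tRNA totals had a difference above 0, and 1 had an unadjusted p under 0.05. This was tyrosine, with 1.02 ± 0.43 (unadjusted p = 0.0212), after −0.17 ± 0.30 in nuc and −1.19 ± 0.31 in cyto. Tryptophan (0.87 ± 0.50), threonine (0.83 ± 0.42), proline (0.82 ± 0.41), serine (0.79 ± 0.40), isoleucine (0.74 ± 0.45) and lysine (0.70 ± 0.41) followed. Selenocysteine (−0.61 ± 0.54), glutamate (−0.36 ± 0.40) and glycine (−0.34 ± 0.40) stood at the other end of the 22 named isotypes, and the 3 features of undetermined isotype held 0 to 2 counts in nuc. Adjusted over all features and totals, no isotype passed, and the smallest adjusted p of any total was 0.958. In cyto 13 totals were lower with an unadjusted p under 0.05, against 5 in nuc, where tRNA counts were far fewer. Among families with intron-bearing genes, Leu-CAA had a median of 0.89 over 6 features, Ile-TAT of 0.69 over 5 and Arg-TCT of 0.33 over 6, beside 0.14 over the 430 tRNA features outside these families and Tyr-GTA. The whole isotypes had medians of 0.26 for leucine (31 features), 0.95 for isoleucine (22) and 0.68 for arginine (28). Ile-TAT and Arg-TCT thus lay below their isotypes, and Leu-CAA above. Named isotypes without such families ranged in median from −0.50 (selenocysteine) to 0.75 (threonine, 21 features). With 31 features in all, the 4 families had 8 with an unadjusted p under 0.05 upward (25.8%), beside 43 (10%) of the 430. Of the 8, 5 were Tyr-GTA and 0 were Arg-TCT.

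The T run after the gene gave no order among tRNAs. TTTT or longer was looked for on the transcribed strand within 40 bases after the gene end, and 86.1% of tested tRNA features held it, against 19% of other features of at most 500 nt. The median difference was 0.22 over 258 genes with a first run of 4 T, 0.13 over 77 with 5, 0.40 over 13 with 6, 0.20 over 49 with at least 7 and 0.07 over 64 with none. The quartiles of these groups overlapped. tRNA-Tyr-GTA-3-1 and tRNA-Tyr-GTA-8-1 both have 4 T, starting 7 bases after the gene end, and differed in their nuclear change as given above.

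snaR RNAs were at the opposite end, with a larger drop in the nucleus. The snaR-A total was at 282, 174 and 491 CPM in control nuc and 44.9, 58.8 and 64.0 CPM in siSSB nuc. In cyto it was at 112, 112 and 146 CPM in control and 72.4, 87.1 and 22.1 CPM in siSSB libraries. All siSSB libraries were below all control libraries in both fractions, but siSSB cyto replicate 3 was far below the other 2 of its group. The knockdown effects on the total overlapped between the fractions, by the rule for non-overlapping effects. The log2 change was −2.50 ± 0.37 in nuc, a 5.65-fold drop, and −1.03 ± 0.35 in cyto, a 2.04-fold drop. The difference of −1.47 ± 0.50 passed when adjusted over the 18 RNA type totals (adjusted p = 0.0441, edgeR), where 2 of 18 passed downward (11.1%), but not when adjusted over all features and totals.

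The call for snaR-A depended on single libraries. Without control nuc replicate 3, the library with the highest snaR-A level, the difference was −1.001 (adjusted p = 0.215). Without siSSB cyto replicate 3 it was −1.84 (adjusted p = 0.000419). It also missed the threshold without control nuc replicate 1, without siSSB cyto replicates 1 or 2, or without any 1 siSSB nuc library, with adjusted p-values of 0.0715 to 0.146, and it was below 0 in each case. The total of snaR-A also missed the threshold with the DESeq2 test, with all 18 libraries, with identical counts taken once, with the block by culture and with 4 of the 6 other scalings, and passed in 10 of 25 alternatives. All 14 snaR-A features had a difference below 0, from −1.65 to −0.99, and 13 had an unadjusted p under 0.05, but the copies are near-identical, so reads may be split among them and the 14 values may not be independent. Non-overlapping effects were seen in 1 of the 14. SNAR-A14, the most abundant, had −1.38 ± 0.51, with overlapping effects.

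The snaR-B to snaR-I total, from relatives of snaR-A with far fewer counts, gave the largest difference of any RNA type. It was at 6, 22.7 and 8.92 CPM in control nuc and 1.24, 1.74 and 3.04 CPM in siSSB nuc, groups that did not overlap. In cyto it was at 0.731, 0.805 and 0.649 CPM in control and 0.767, 0.441 and 0.169 CPM in siSSB libraries, groups that overlapped and rest on 17 to 102 counts a library. The change was −2.65 ± 0.43 in nuc and −0.65 ± 0.42 in cyto, and the difference −2.00 ± 0.60 (adjusted p = 0.0295 over the 18 totals, edgeR). Without control nuc replicate 2, which held the highest level, it was −1.24 (adjusted p = 0.276). It also missed the threshold without siSSB cyto replicate 1, siSSB nuc replicate 1 or siSSB nuc replicate 2. Other settings also lost the call of the total of snaR-B to snaR-I: the DESeq2 test, all 18 libraries and 4 of the 6 other scalings. It passed in 15 of 25 alternatives. The knockdown effects on this total overlapped between the fractions. Of 14 features 5 were tested, all below 0, and SNAR-B1 had a difference of −2.35 ± 0.62 with an unadjusted p of 0.000475 and an adjusted p of 0.958. Without siSSB cyto replicate 3, the difference of SNAR-B1 was −2.71 and passed (adjusted p = 0.00385).

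**Figure D3:**
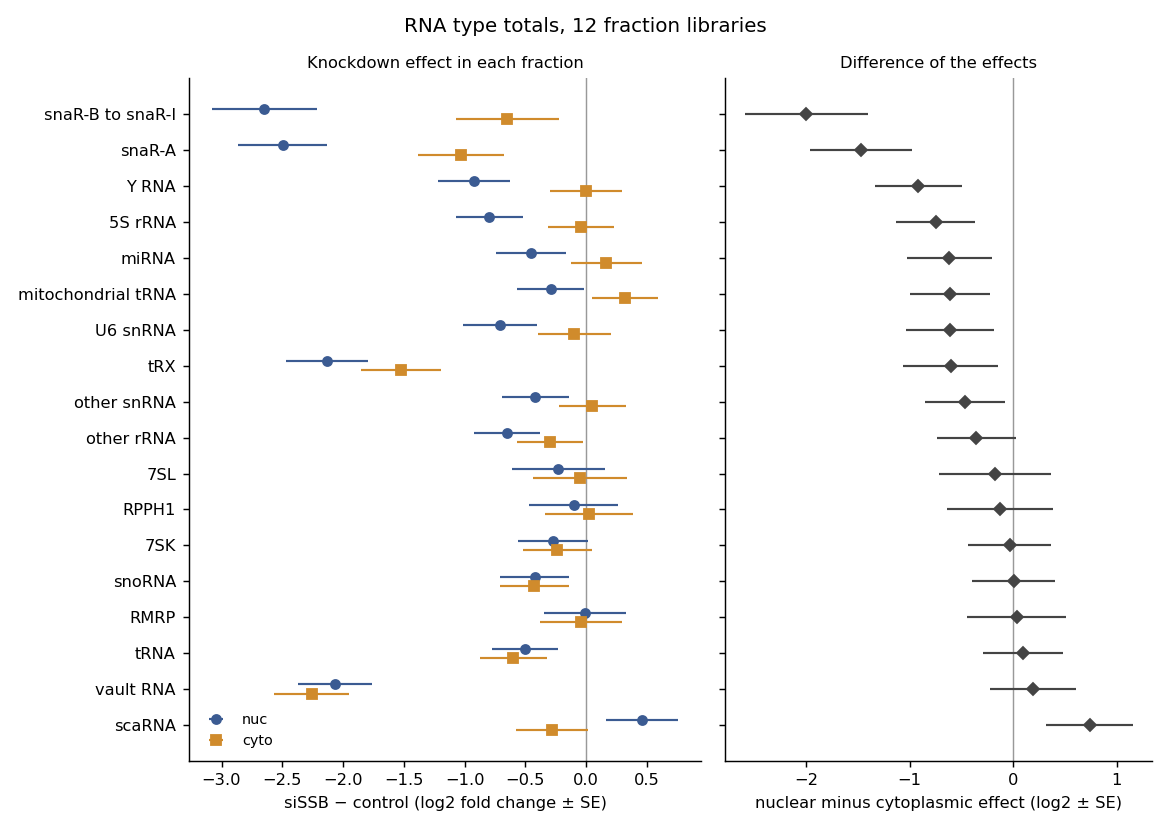
Knockdown effect on 18 RNA type totals in nuc and cyto (left, log2 ± SE) and the difference of the effects (right, log2 ± SE), from 1 fit of 12 libraries. Vault RNA and tRX fell in both fractions with differences of 0.19 ± 0.42 and −0.60 ± 0.46, and only the 2 snaR totals passed the test of the difference.

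Vault RNAs, which are part of the vault particle, fell in both fractions. Their total went from 116, 88.6 and 58.7 CPM in control nuc to 22.3, 19.9 and 20.5 CPM in siSSB nuc, and from 737, 444 and 741 CPM in control cyto to 118, 114 and 170 CPM in siSSB cyto. Neither pair of groups overlapped. The changes of −2.07 ± 0.31 and −2.26 ± 0.31 differed by 0.19 ± 0.42 (adjusted p = 0.967). VTRNA1-1 (−0.12 ± 0.43), VTRNA1-2 (0.20 ± 0.42) and VTRNA1-3 (−0.09 ± 0.54) had differences near 0. tRX-Cys-NNN-4-1, the most abundant of the tRNA-like tRX genes, fell in the same way, by 2.33 ± 0.35 on the log2 scale in nuc and 2.09 ± 0.35 in cyto, with a difference of −0.24 ± 0.48.

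Y RNAs, the partners of the Ro60 protein, had lower levels in siSSB nuc than in control nuc, but the difference between fractions did not pass. The Y RNA total was at 526, 329 and 265 CPM in control nuc and 240, 120 and 232 CPM in siSSB nuc, so that the groups did not overlap in CPM. As a share of the counts over all RNA types they did overlap, at 0.125% to 0.225% in control nuc and 0.0930% to 0.130% in siSSB nuc. In cyto it was at 3323, 2669 and 4037 CPM in control and 2873, 3575 and 3568 CPM in siSSB libraries, which overlapped. The changes were −0.92 ± 0.30 in nuc and −0.00 ± 0.30 in cyto, and the difference −0.92 ± 0.42 (unadjusted p = 0.0339, adjusted p = 0.204). With the libraries scaled to the snoRNA total, the total of Y RNA was at −0.92 and passed (adjusted p = 0.00425). Without 1 library the total of Y RNA ranged from −1.11 to −0.60, the latter without control nuc replicate 1, and did not pass.

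Each of the 4 main Y RNAs had a difference below 0. RNY3 had the largest, −1.26 ± 0.43, and non-overlapping effects: it was at 25.3, 23.4 and 15.7 CPM in control nuc and 10.6, 6.31 and 10.4 CPM in siSSB nuc, and at 56.9 to 87.7 CPM in control cyto and 64.1 to 76.8 CPM in siSSB cyto. RNY5 had −1.15 ± 0.46, RNY4 −0.78 ± 0.43 and RNY1 −0.60 ± 0.43, and none passed over all features (adjusted p = 0.958 to 0.962). Without control nuc replicate 1, RNY1 was at −0.21, RNY4 at −0.51 and RNY5 at −0.78. Without siSSB nuc replicate 2, RNY1 was at −0.35 and RNY4 at −0.48. RNY3 stayed between −1.44 and −1.04 without any 1 library. A further Y RNA copy, RF00019 (chr22:41065529-41065671, minus strand), was named by the rule with −1.48 ± 0.55, on 6 to 20 counts in the nuc libraries. Of 871 Y RNA features 361 were tested, 48 of them with an unadjusted p under 0.05 downward (13.3%) and 0 upward. Most are copies other than the 4 main genes and may share reads with them.

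5S rRNA, the Pol III transcript of the large ribosomal subunit, had a total that went from 11373, 13399 and 10071 CPM to 8411, 6099 and 5564 CPM in nuc, without overlap. As a share of the counts over all RNA types the total nearly met, at 4.74% to 5.87% in control nuc and 3.06% to 4.73% in siSSB nuc. In cyto it was at 3466 to 4599 CPM in control and 3279 to 4341 CPM in siSSB libraries. The difference was −0.75 ± 0.39 (adjusted p = 0.261), and with snoRNA scaling the total of 5S rRNA was at −0.71 and passed (adjusted p = 0.0443). Of 324 features 136 were tested, 128 of them below 0 and 27 with an unadjusted p under 0.05 downward (19.9%), and the most abundant, RNA5S8, had −0.74 ± 0.40. The U6 total had −0.61 ± 0.43, and the most abundant copy, RNU6-1;RNU6-9, −0.25 ± 0.45.

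The Other Pol III RNAs showed no detectable difference. RN7SK, which holds the elongation factor P-TEFb, had −0.03 ± 0.40, with 48.9 to 54.1 CPM in control nuc and 41.3 to 43 CPM in siSSB nuc. RMRP had 0.03 ± 0.48, RPPH1, the RNA of RNase P, −0.13 ± 0.51, and RN7SL1, the RNA of the signal recognition particle, −0.13 ± 0.56. The last 3 were highest in the 2 nuclear libraries that stood apart: RPPH1 was at 92.1 CPM in control nuc replicate 3 and 86 CPM in siSSB nuc replicate 2, against 29.8 to 38.3 CPM in the other nuc libraries. Without 1 of the 12 libraries, their differences ranged from −0.47 to 0.62 for RMRP and from −0.78 to 0.50 for RPPH1, and the direction of RN7SK, RMRP, RPPH1 and RN7SL1 also turned with the scaling of the libraries.

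**Figure D4:**
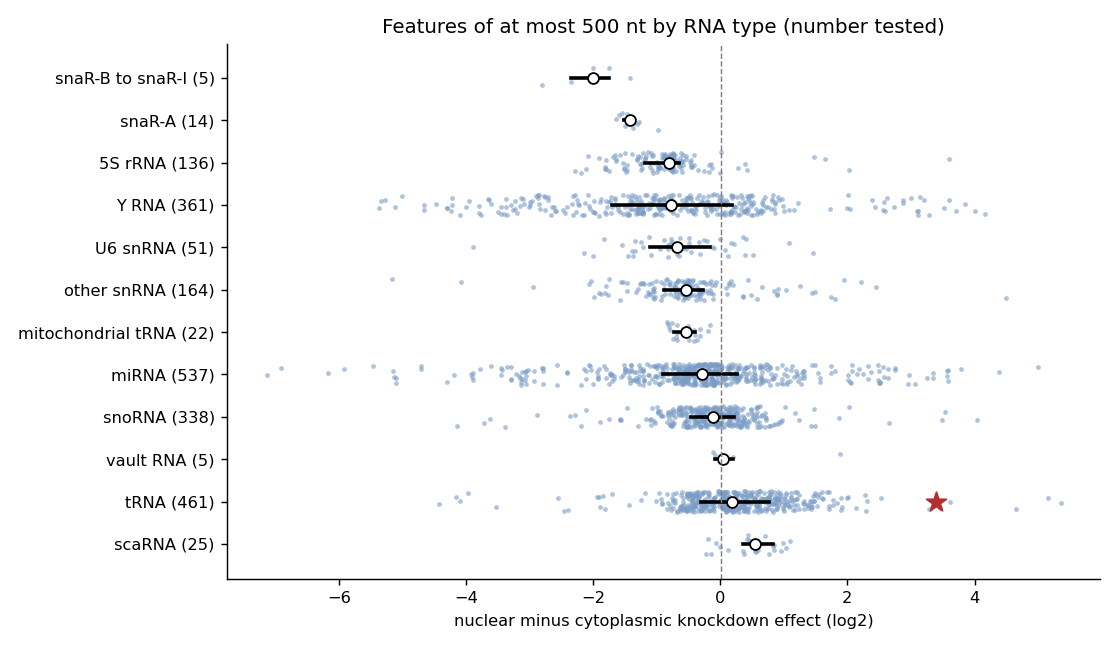
Nuclear minus cytoplasmic knockdown effect (log2) of each tested feature of at most 500 nt in 12 RNA types; open circles are medians, bars quartiles, and the dashed line the median of all 37493 features (0.01). tRNA and scaRNA medians lie above the line at 0.18 and 0.54, snaR-A and Y RNA medians below it at −1.42 and −0.78, and the star is tRNA-Tyr-GTA-3-1.

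The snoRNA total, dominated by C/D snoRNAs that guide rRNA methylation, had a difference of 0.00 ± 0.40 after −0.42 ± 0.28 in nuc and −0.43 ± 0.28 in cyto. SNORD44, the most abundant, had 0.05 ± 0.41, SNORD7 −0.07 ± 0.45 and SNORA74A 0.25 ± 0.46. H/ACA snoRNAs, which guide pseudouridylation, had a median of −0.34 over 129 tested features. Of these, 11 were at an unadjusted p under 0.05 downward (8.53%) and 1 upward (0.775%). C/D snoRNAs had a median of −0.03 over 177 features, with 1 downward (0.565%) and 2 upward (1.13%). Of all 2626 features of at most 500 nt, 6.21% were downward and 2.82% upward.

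By the rule SNORA15B-1 (−1.57 ± 0.56) and SNORA57 (−1.30 ± 0.46) were named among the snoRNAs that were lower. SNORA15B-1 changed by −0.52 ± 0.32 in nuc and 1.05 ± 0.46 in cyto. It held 4, 5 and 8 counts in control cyto and 16, 13 and 9 in siSSB cyto, close to the floor of 3 counts a library. SNORA57 went from 132, 151 and 252 CPM to 74.2, 120 and 107 CPM in nuc and from 0.218, 0.22 and 0.233 CPM to 0.256, 0.345 and 0.337 CPM in cyto. Its cyto levels rest on 20 to 36 counts a library. The lncRNA feature lnc-UQCC3-1, which holds SNORA57 and nearly the same counts, had −1.34 ± 0.45. SNORD160, in an intron of KIF2C, was the highest non-tRNA feature by the rule, with 2.03 ± 0.58 (adjusted p = 0.958). It was at 2.53 to 4.15 CPM in nuc, where the groups overlapped, and went from 16, 14 and 44 counts in control cyto to 3, 8 and 4 counts in siSSB cyto, close to the floor of 3 counts a library.

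scaRNAs, which guide the modification of snRNAs in Cajal bodies, had differences that leaned upward, as those of tRNAs did. Their total was at 79.7, 106 and 149 CPM in control nuc and 162, 174 and 126 CPM in siSSB nuc, with overlap. It changed by 0.46 ± 0.30 in nuc and −0.28 ± 0.30 in cyto, whereas the tRNA total changed by −0.50 ± 0.27 and −0.60 ± 0.28. The difference of the scaRNA total was 0.74 ± 0.42 (adjusted p = 0.305, edgeR). Of 25 tested features 20 were above 0 and 3 had an unadjusted p under 0.05 upward (12%), and SCARNA20, the most abundant, had 0.84 ± 0.52. Other snRNAs had a total at −0.47 ± 0.39 and 18 of 164 features at an unadjusted p under 0.05 downward (11%). RNU5E-1, a U5 snRNA, had −0.29 ± 0.43, and a U1 copy (RNVU1-2 in GENCODE), named by the rule, −1.32 ± 0.52. Mitochondrial tRNAs were all 22 below 0, with a total at −0.61 ± 0.39 and MT-TS2 at −0.75 ± 0.42. The 5.8S rRNA feature RNA5-8SN1;RNA5-8SN4 had −0.33 ± 0.39.

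miRNAs had a total at −0.62 ± 0.41 (adjusted p = 0.356). Their median was −0.29 over 537 tested features, beside −0.28 over all 2626 features of at most 500 nt. Of the 537, 17 were at an unadjusted p under 0.05 downward (3.17%) and 5 upward (0.931%), beside 6.21% and 2.82% of the 2626. MIR1291, the most abundant feature of the type, had −0.77 ± 0.42, but it lies within the snoRNA SNORA2C and can hold its reads. MIR1291 held 30808, 34603 and 37000 of the 89538, 93562 and 111744 counts of the miRNA total in control nuc. In control cyto it held 173, 146 and 316 of 211633, 202792 and 210891. How far the miRNA total follows these reads was not tested. MIR340, in an intron of RNF130, had −0.71 ± 0.63, on 10 to 21 counts in the nuc libraries. It was at 9.59, 8.93 and 3.08 CPM in control cyto and 6.52, 5.49 and 19.0 CPM in siSSB cyto, so siSSB cyto replicate 3 alone was above the controls.

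MIR877, a mirtron cut from an ABCF1 intron by splicing, was chosen after its values were seen. It had 6, 8 and 1 counts in control nuc and 0 in all 3 siSSB nuc libraries, and 34, 27 and 79 counts in control cyto and 107, 54 and 49 counts in siSSB cyto. The nuc libraries were thus at or near the floor of 3 counts, and no fold is given. The unadjusted p was 2.44e-05 and the adjusted p 0.152. For the difference of MIR877 the adjusted p was 0.0286 without control cyto replicate 1, 0.00456 without control cyto replicate 3, 0.0112 without siSSB cyto replicate 2 and 0.0052 without siSSB cyto replicate 3. Unfiltered, it was 0.0254, and with the block by culture 0.0147. It missed the threshold in the other 18 of 24 alternatives. Its mature 5p arm is printed with the seed (bases 2 to 8) in capitals, from RefSeq (GRCh38.p14).
hsa-miR-877-5p: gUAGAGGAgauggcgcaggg

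**Figure D5:**
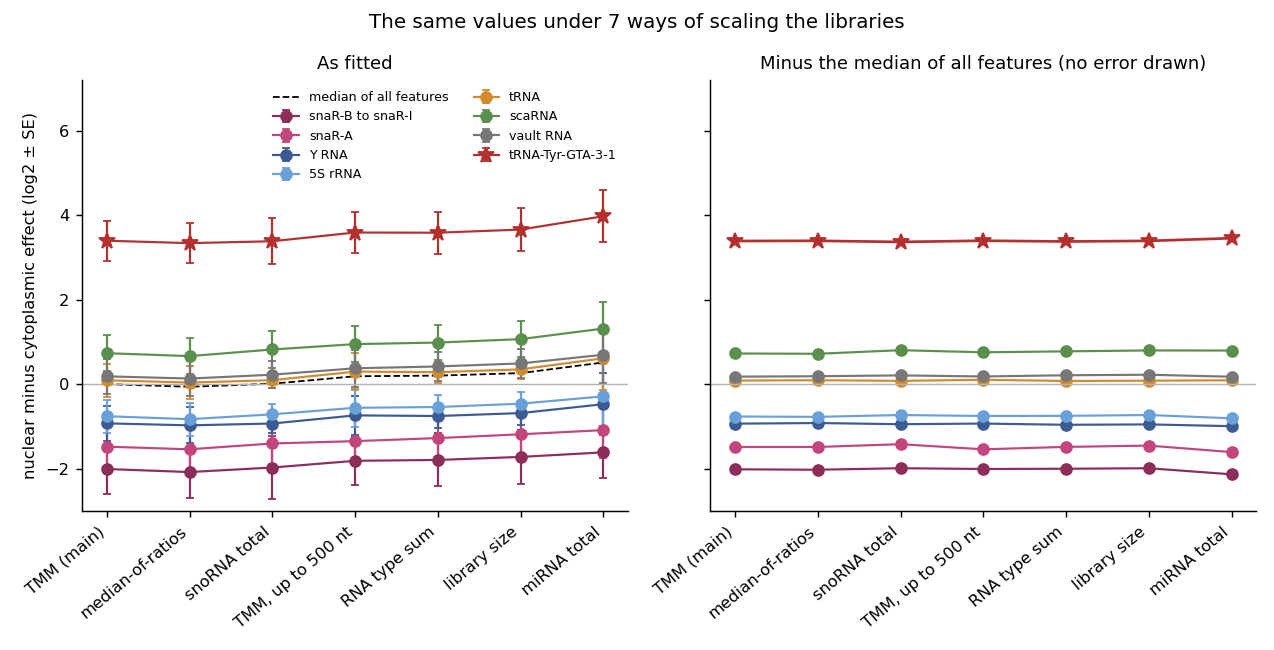
Nuclear minus cytoplasmic effect (log2) of 7 RNA type totals and tRNA-Tyr-GTA-3-1 under 7 ways of scaling the libraries, as fitted with SE (left) and after subtraction of the median of all features under the same scaling (right). As fitted, tRNA-Tyr-GTA-3-1 ranges from 3.34 to 3.97, and relative to the median from 3.37 to 3.46.

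How the libraries were scaled shifted the differences. Relative to TMM, the median over features shifted by −0.06 with median-of-ratios factors, 0.01 with the snoRNA total, 0.19 with TMM on small features, 0.20 with the sum of RNA types, 0.27 with library size alone and 0.51 with the miRNA total. The miRNA total includes the MIR1291 counts given above. Taken relative to the median of all features under the same scaling, the snaR-A total lay between −1.60 and −1.41, the snaR-B to snaR-I total between −2.12 and −1.98, the Y RNA total between −0.99 and −0.91, the 5S rRNA total between −0.80 and −0.72, the scaRNA total between 0.72 and 0.81, and tRNA-Tyr-GTA-3-1 between 3.37 and 3.46. The sign of none of these 6 turned under any of the 7 scalings, also as fitted, whereas types near 0 could turn.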

How the data were processed

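Small RNA libraries were made with a NEBNext kit, all marked plus PNK, from 3 biological replicates a group. The deposited table holds raw counts per noncoding RNA feature, with RNAcentral-type identifiers, which the authors made from reads on hg38. The submitters' processing notes name Bowtie2 and bedtools, without roles, and settings for multi-mapping and strand are not given in the sources used here. Reads of near-identical, overlapping or antisense features therefore cannot be told apart, nor precursor, mature and fragment reads of a tRNA.

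The counts of the 12 fraction libraries were tested as deposited with edgeR 4.0.16 (quasi-likelihood F-test, TMM, filterByExpr, R 4.3.3), group means only, with the contrast (siSSB nuc − control nuc) − (siSSB cyto − control cyto) and Benjamini-Hochberg adjustment over all 37493 features. Companion changes within nuc and cyto came from the same fit, and total RNA from its own fit of 6 libraries. RNA type and isotype totals, with rows of identical counts taken once, were added to the fit as extra rows, and the 18 type totals were also adjusted among themselves. Log2 values are ± SE. Non-overlapping effects were judged on log2 CPM with a prior count of 2.

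Named features of at most 500 nt were those past an adjusted p of 0.05, up to 6 a direction with the largest difference among those with an unadjusted p below 0.05, a mean of 50 counts and non-overlapping effects, 18 listed RNAs, and the most abundant of each RNA type. Members and lists were chosen with earlier results of these data known. The scripts were tested on simulated data, with known differences set in features with a mean of at least 50 counts. The test called 2.99% of log2 differences of 1, 38.8% of those of 2 and 95.5% of those of 4. Few calls therefore do not mean that few features differed. The test also called 6 simulated features in which no difference had been set. The simulated spread followed its trend with the mean count, not the spread of each feature. Alternatives were other scalings, DESeq2 1.42.0, no filter, identical features taken once, all 18 libraries, replicate blocks, other thresholds and leaving out each library. The RNA type totals with 1 row a locus were added after the data were seen. Gene ends and mature miRNAs came from RefSeq (GRCh38.p14), and sequences were read with samtools 1.23.1. All 18 columns of the table were mapped by name to labelled samples.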

Additional observations from a re-analysis of the deposited data

Results flagged for a closer look

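In 3 results the knockdown effect differed between nucleus and cytoplasm by the test of the difference itself (edgeR). tRNA-Tyr-GTA-3-1 had a difference of 3.40, with its level up in the 3 siSSB nuc libraries and down in the 3 siSSB cyto libraries. It was called in all 24 alternatives. The snaR-A total had a difference of −1.47 and the snaR-B to snaR-I total of −2.00, both called only when adjusted over the 18 RNA type totals. These calls depended on single libraries and on the test and scaling, and passed in 10 and 15 of 25 alternatives. In both totals the knockdown effects overlapped between the fractions. In these snaR totals the library with the highest level was a control nuc library, replicate 3 for snaR-A and replicate 2 for snaR-B to snaR-I.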

How the results depend on the processing

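Of the 37493 features, 5 were called. The number was 3 with the DESeq2 test, 3 with snoRNA scaling, 3 at an adjusted p of 0.01, 9 with a replicate block by culture, 12 with no filter and 14 with miRNA scaling. Without 1 library it ranged from 1 to 24, with 1 without control nuc replicate 3, 2 without control nuc replicates 1 or 2 or siSSB nuc replicate 2, 3 without siSSB nuc replicate 1, 8 without control cyto replicate 1, 14 without siSSB cyto replicate 2, 21 without siSSB cyto replicate 3 and 24 without control cyto replicate 3. Of the 18 type totals, 2 were called, against 1 with TMM on small features, identical counts taken once or the block by culture, 0 with the DESeq2 test, all 18 libraries, class sum scaling, library size alone or miRNA scaling, and 0 to 2 without 1 library. With snoRNA scaling 3 were called: snaR-A, Y RNA and 5S rRNA. With 1 row a locus, a choice made after seeing the data, both snaR totals passed.

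The total of snaR-A missed the threshold at −1.53 with the DESeq2 test, −1.34 with TMM on small features, −1.48 with all 18 libraries, −1.27 with class sum scaling, −1.47 with identical counts taken once, −1.18 with library size alone, −1.08 with miRNA scaling and −1.18 with the block by culture, and ranged from −1.84 to −1.001 without 1 library. The total of snaR-B to snaR-I missed it at −2.06 with the DESeq2 test, −2.02 with all 18 libraries, −1.78 with class sum scaling, −1.71 with library size alone, −1.60 with miRNA scaling and −1.96 with snoRNA scaling, and ranged from −2.45 to −1.24 without 1 library. Neither total changed sign, and the cause was not tested.

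For 4365 features with a mean of at least 50 counts, the group mean of log2 CPM was subtracted in each library. These deviations from the group mean correlated at 0.0035 to 0.278 between same-numbered nuc and cyto libraries of a treatment (5 of 6 above 0.1). Over all 18 same-numbered pairs, which include pairs across treatments, the range was −0.798 to 0.278. The labels do not say whether same-numbered nuc and cyto libraries came from 1 culture. The main fit did not take the numbers as pairs, and fits with blocks were run as alternatives. The replicate block gave 4 called features, −1.49 for the total of snaR-A and −1.87 for the total of snaR-B to snaR-I. It turned the total of snoRNA to −0.050 and the difference of SNORD44 to −0.017. The block by culture turned the total of snoRNA to −0.045, the difference of SNORD44 to −0.028 and the difference of RN7SL1 to 0.0083.

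Other values near 0 changed sign. With DESeq2 size factors, in edgeR or in the DESeq2 test, the difference of RMRP and the total of RMRP were −0.040 and −0.041, the total of snoRNA −0.055 and the difference of SNORD44 −0.015. The total of snoRNA was −0.00036 with all 18 libraries and −0.012 with no filter. The totals of 7SK, 7SL and RPPH1 were 0.21, 0.15 and 0.18 with class sum scaling, 0.29, 0.24 and 0.28 with library size alone, and 0.49, 0.44 and 0.43 with miRNA scaling. Those of 7SK and RPPH1 were 0.17 and 0.045 with TMM on small features and 0.037 and 0.031 with snoRNA scaling. RN7SK, RN7SL1 and RPPH1 were 0.17, 0.042 and 0.045 with TMM on small features, 0.21, 0.18 and 0.18 with class sum scaling, 0.29, 0.28 and 0.28 with library size alone, 0.49, 0.51 and 0.43 with miRNA scaling, and 0.036, 0.022 and 0.031 with snoRNA scaling. SNORD7, VTRNA1-1 and VTRNA1-3 were 0.13, 0.085 and 0.12 with TMM on small features, 0.12, 0.081 and 0.12 with class sum scaling, 0.20, 0.16 and 0.20 with library size alone, and 0.41, 0.43 and 0.55 with miRNA scaling. tRX-Cys-NNN-4-1 was 0.016 with TMM on small features and 0.31 with miRNA scaling, and RNU6-1;RNU6-9 was 0.067 with library size alone and 0.29 with miRNA scaling. Only miRNA scaling turned the totals of other rRNA (0.14) and other snRNA (0.032), the Glu (0.12) and Gly (0.20) isotypes, RNA5-8SN1;RNA5-8SN4 (0.18) and RNU5E-1 (0.21).

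Without 1 library, values near 0 crossed it: the totals of 7SK (−0.20 to 0.15), 7SL (−0.90 to 0.83), RMRP (−0.47 to 0.62), RPPH1 (−0.78 to 0.50), snoRNA (−0.19 to 0.20), tRNA (−0.034 to 0.30) and vault RNA (−0.026 to 0.43), and RN7SK (−0.20 to 0.15), RN7SL1 (−0.85 to 0.93), RMRP (−0.47 to 0.62), RPPH1 (−0.78 to 0.50), RNU6-1;RNU6-9 (−0.51 to 0.10), SNORD44 (−0.22 to 0.25), SNORD7 (−0.31 to 0.20), VTRNA1-1 (−0.28 to 0.075), VTRNA1-2 (−0.038 to 0.47), VTRNA1-3 (−0.30 to 0.20), tRX-Cys-NNN-4-1 (−0.45 to 0.28), tRNA-Lys-TTT-1-2 (−0.044 to 0.56) and MIR340 (−1.03 to 0.091).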

Other observations

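Of the 5 features that passed the test, 4 were longer than 500 nt. A pair of them lay over SSB sequence and were lower by the difference because they stood far higher in siSSB cyto. lnc-PRKAB2-5, over the pseudogene SSBL4P, held 6, 3 and 7 counts in control cyto and 2493, 750 and 2108 in siSSB cyto, against 1, 4 and 2 in control nuc and 10, 7 and 13 in siSSB nuc (difference −6.37 ± 0.97, adjusted p = 0.000955, edgeR). HSALNG0020274, over SSB exons, held 32, 25 and 30 counts in control cyto and 3145, 983 and 3304 in siSSB cyto, against 5, 1 and 4 in control nuc and 13, 5 and 14 in siSSB nuc (−4.81 ± 0.83, adjusted p = 0.00753). The other 2 were higher. HSALNG0085924 went from 670, 388 and 586 counts in control cyto to 114, 78 and 180 in siSSB cyto and held 1 to 10 counts in nuc (3.96 ± 0.72, adjusted p = 0.0133). HSALNG0103479, 64612 nt long, held 16, 15 and 16 counts in control nuc and 458, 219 and 10 in siSSB nuc, so the groups overlapped (5.23 ± 0.94, adjusted p = 0.0133).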
